A study of Mus musculus with 2 samples.

Results

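The 10 genes described here carry a cell from G1 into S phase: the D cyclins Ccnd1, Ccnd2 and Ccnd3, the E cyclins Ccne1 and Ccne2, the A cyclin Ccna2, the kinases Cdk2, Cdk4 and Cdk6, and the retinoblastoma gene Rb1. They were chosen by symbol, through the gene identifiers of the deposited tables, and all 10 were found among 43346 annotated genes, with 59 transcripts in the transcript tables. RNA came from CH12.LX, an immortalized mouse B-cell lymphoma line of strain B10.H-2aH-4bp/Wts, female, which the labels set beside the human line GM12878. There are 2 libraries, numbered biological replicates 1 and 2, which form 1 group. The labels give no treatment, knockout or second cell type, and they call the assay total RNA while a description field speaks of RNA over 200 nt and polyA+. An immortalized line is a single tumour-derived population, and its cells were not sorted by cell cycle phase as far as the labels say, so each level is an average over the culture. In such bulk RNA, expression in fewer cells and less RNA per cell cannot be told apart.

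D cyclins bind Cdk4 and Cdk6 when growth signals arrive, and the complexes begin to phosphorylate the pocket protein Rb1, which in its unphosphorylated state holds back E2F transcription factors. E cyclins and then cyclin A2 bind Cdk2, complete that phosphorylation and drive DNA replication, while inhibitors of the INK4 and CIP/KIP families restrain these kinases. In B cells, Ccnd2 and Ccnd3 are the D cyclins best known for carrying antigen-receptor and germinal-centre signals, and Ccnd1 is usually silent.

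The genes held 24379174 and 23517901 expected counts in replicates 1 and 2. All 10 markers of the B lineage reached 1 TPM in both replicates, with a summed level of 8243 and 7547 TPM. Of the markers of other cells, 1 of 6 T-cell genes (summed level under 2 TPM in both), 1 of 4 erythroid genes (summed 4.21 and 3.31 TPM) and 0 of 6 myeloid genes (summed 0.81 and 0.78 TPM) did so, as did 0 of 3 NK, 0 of 4 stromal and 0 of 2 endothelial genes. TPM is a level per transcript length relative to the whole library, which allows genes of unlike length to be compared. Where reads are assigned to short transcripts, as described below for Cdk4 and Rb1, the TPM of a gene also depends on that assignment. A value after ± is the SD between the libraries (n = 2). Coordinates refer to GRCm38 (mm10).

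The upstream sequences of Cdk4, Cdk6 and Ccnd3 are shown because Cdk4 and Cdk6 were the highest and the lowest of the 3 kinases and Ccnd3 has a pair of start regions. They are the 250 bases before an annotated RefSeq start on GRCm38.p6, on the strand of the gene and 5′ to 3′, and the capitals mark the motif CACGTG, the E-box bound by Myc and other helix-loop-helix factors. Cdk4 is at chr10:127063285-127063534 on the plus strand, Cdk6 at chr5:3343643-3343892 on the plus strand, the upstream Ccnd3 start at chr17:47504801-47505050 and the downstream one at chr17:47593217-47593466, both on the plus strand.
Cdk4: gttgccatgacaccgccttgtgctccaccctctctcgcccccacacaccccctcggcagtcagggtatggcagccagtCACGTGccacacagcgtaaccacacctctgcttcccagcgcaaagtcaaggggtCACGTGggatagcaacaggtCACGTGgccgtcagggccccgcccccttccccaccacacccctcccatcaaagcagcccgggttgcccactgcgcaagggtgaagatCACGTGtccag
Cdk6: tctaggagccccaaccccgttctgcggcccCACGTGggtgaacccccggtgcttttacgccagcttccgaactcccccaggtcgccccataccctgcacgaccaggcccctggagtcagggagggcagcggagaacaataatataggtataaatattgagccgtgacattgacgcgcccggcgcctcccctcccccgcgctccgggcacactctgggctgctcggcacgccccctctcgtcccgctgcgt
Ccnd3, upstream start: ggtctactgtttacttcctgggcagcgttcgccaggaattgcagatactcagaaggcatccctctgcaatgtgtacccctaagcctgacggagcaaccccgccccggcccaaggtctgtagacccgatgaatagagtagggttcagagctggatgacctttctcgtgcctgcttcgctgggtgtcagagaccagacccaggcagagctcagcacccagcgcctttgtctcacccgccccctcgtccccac
Ccnd3, downstream start: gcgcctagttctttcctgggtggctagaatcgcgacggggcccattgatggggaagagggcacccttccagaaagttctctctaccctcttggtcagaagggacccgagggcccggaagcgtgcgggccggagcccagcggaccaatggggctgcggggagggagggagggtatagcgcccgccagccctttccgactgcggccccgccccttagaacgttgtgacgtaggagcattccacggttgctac
Counted from the start site, the first base of the E-box lay at -172, -118, -98 and -11 in Cdk4 and at -220 in Cdk6, and neither Ccnd3 window held one. At least 1 E-box was found in 6.02% of all 32851 such windows of the mouse genes, and 4 or more in 7 windows, 0.0213%. The letters TTTCCCGC, TTTCGCGC, TTTGGCGC and TTTGCCGC, forms of the E2F site, were searched on both strands and matched in none of these 4 windows. They matched once in the window of Cdk2, on the strand opposite to the gene, and at least once in 1.86% of all windows. The GC content was 64.4% in Cdk4, 66.0% in Cdk6, 59.6% at the upstream and 64.8% at the downstream Ccnd3 start, where the median of all windows was 52.4%. A window was also given for Ccne1. Ccnd1, Ccnd2, Ccne2, Ccna2 and Rb1 had none. A match of letters describes the sequence and does not show that a factor was bound.

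Of the 10 genes, 9 reached 1 TPM in both replicates, against 45.9% of the 21474 protein-coding genes, and the exception was Ccnd1. Counted over all transcripts of a gene, Cdk4 was the highest at 641 ± 36.8 TPM and Ccna2 followed at 198 ± 18.6 TPM. With transcripts of a complete reading frame only, Ccna2 was above Cdk4 in both replicates, at 188.9 ± 20.2 TPM against 162.7 ± 11.9 TPM. Next came Cdk2 at 57.0 ± 2.65 TPM and Ccne1 at 56.6 ± 4.02 TPM, whose replicate values overlapped, and then Ccne2 at 39.2 ± 2.98 TPM. Ccnd2 at 29.6 ± 4.999 TPM and Ccnd3 at 23.3 ± 0.382 TPM did not overlap in TPM, but the credibility bounds deposited by the authors did. Cdk6 at 15.7 ± 2.56 TPM and Rb1 at 13.8 ± 1.36 TPM overlapped, and Ccnd1 stood at 0.045 ± 0.0212 TPM. The median protein-coding gene had 0.41 TPM, and the median of those expressed was 19.2 TPM.

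**Figure D1:**
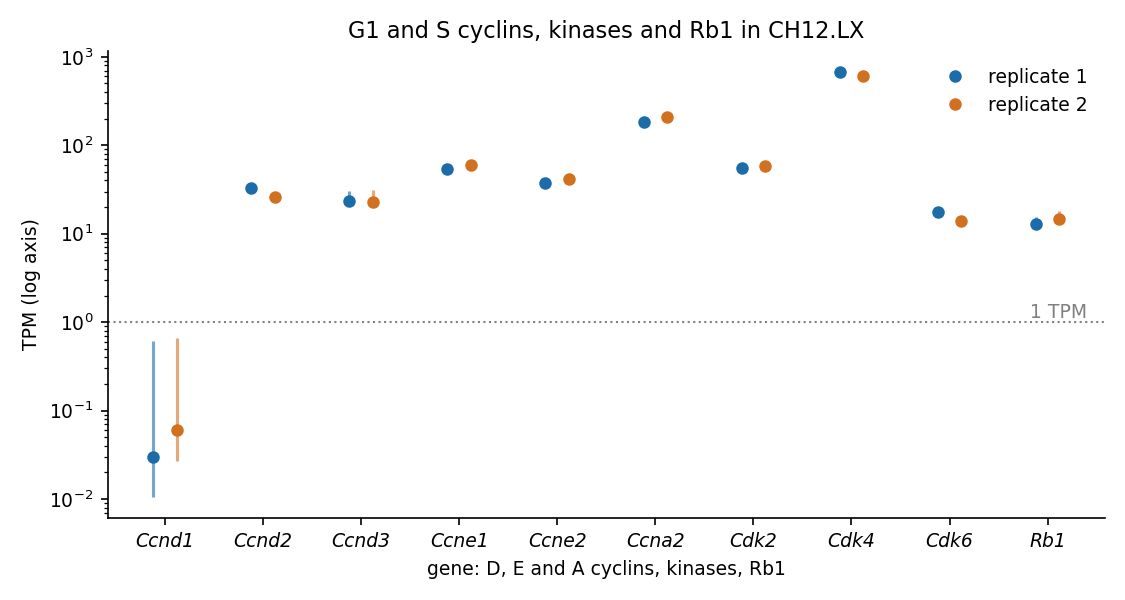
TPM of each gene on a log axis, with 1 point per replicate and a line for the credibility bounds deposited by the authors, which belong to the posterior mean and may lie off the point. Over all its transcripts, Cdk4 is highest at 666.6 and 614.6 TPM, and Ccnd1 alone lies under the dotted line at 1 TPM.

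Ccnd1, cyclin D1, is encoded on the minus strand of chromosome 7 (144929931 to 144939925). It had 2 and 4 expected counts in replicates 1 and 2, or 0.03 and 0.06 TPM, with deposited bounds of 0.0107 to 0.608 TPM and 0.0267 to 0.671 TPM. Both upper bounds lay under 1 TPM. It fell under the minimum of 20 counts for the comparison of the replicates. Tested without that minimum, its counts per library in replicate 2 were 2.07 times those in replicate 1, with an exact interval of 0.297 to 22.9 (exact binomial test, adjusted p = 1), so no difference was detectable at this depth.

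Ccnd2, cyclin D2, lies on the minus strand of chromosome 6 (127125162 to 127152193) and has 1 transcript in the files. It had 3797 and 2866 counts, 33.16 and 26.09 TPM, and ranked 3773rd among protein-coding genes. Ccnd3, cyclin D3, lies on the plus strand of chromosome 17 (47505051 to 47599691) and had 843 and 784 counts, 23.54 and 23 TPM. Ccnd2 was therefore higher in both replicates on the TPM scale. The ratio of Ccnd3 to Ccnd2 was 0.710 and 0.882 by TPM, but 0.222 and 0.274 by counts, which are not divided by length: the transcript of Ccnd2 is 5701 nt long in the files and the main transcript of Ccnd3 1977 nt. With the posterior mean TPM that the authors also deposited, the ratio averaged 0.966 in place of 0.796 ± 0.121. Ccnd2 made up 55.8% ± 3.797 and Ccnd3 44.1% ± 3.75 of the summed D cyclin TPM.

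Ccnd3 has 2 main regions of transcription start, 88419 nt apart, and 21 transcripts in the files. The 3 transcripts that begin at the downstream start held 97.2% and 93.3% of the counts of Ccnd3 in replicates 1 and 2, or 94.5% and 89.6% of its TPM. The 13 transcripts that begin at the upstream start held 2.42% and 6.06% of the counts, and 5 others held 0.428% and 0.607%. By posterior mean TPM, the downstream start held 76.3% and 69.6%, the upstream start 16.8% and 21.8% and the others 6.91% and 8.62%. The downstream start thus held most of the Ccnd3 RNA by each measure, and the share of the upstream start depended on which estimate was used. The leading transcript, Ccnd3-205, carried 94.3% and 88.9% of the TPM of the gene. By posterior mean TPM its share was 75.4% and 68.2%, an estimate that puts all 21 transcripts above 0. Ccnd3-205 and the leading upstream transcript, Ccnd3-202, have reading frames of the same length, 876 nt.

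Cdk4, the main catalytic partner of the D cyclins in many tissues, lies on the plus strand of chromosome 10 (127063534 to 127067920). It had 11351 and 10611 counts, 666.6 and 614.6 TPM, and ranked 178th among protein-coding genes, above 99.2% of them. Cdk6, its close paralog, lies on the plus strand of chromosome 5 (3341485 to 3531008) and had 1246 and 876 counts, 17.51 and 13.89 TPM. By TPM, Cdk4 was 38.1 times as high as Cdk6 in replicate 1 and 44.2 times in replicate 2. Cdk4 held 89.8% ± 0.538 of the summed TPM of the 3 kinases, Cdk2 8.01% ± 0.784 and Cdk6 2.20% ± 0.246.

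How far Cdk4 stood above the others depended on which of its transcripts were counted. Transcripts annotated as protein-coding held 44.7% and 48.1% of the Cdk4 TPM, or 298 and 295.4 TPM. Transcripts with a complete reading frame held 23.1% and 27.8%, which is 162.7 ± 11.9 TPM and rests on Cdk4-201 alone, at 154.3 and 171.1 TPM. By counts, the same complete transcript held 52.0% and 59.2% of the gene. The transcript with the largest share of TPM was Cdk4-209, a retained-intron model of 468 nt and 2 exons. It carried 32.5% and 37.6% of the TPM but 9.80% and 10.7% of the counts, since TPM divides by transcript length. Cdk4-205, a protein-coding model whose coding end is not annotated, carried 20.4% and 18.5% of the TPM. With complete transcripts only, the ratio of Cdk4 to Cdk6 averaged 10.6 in place of 41.2 ± 4.37, and that of Cdk4 to Cdk2 2.85 in place of 11.3 ± 1.17. Under this choice, which was made after the values were seen, Cdk4 stayed the highest of the 3 kinases but was below Ccna2, at 154.3 and 171.1 TPM against 174.7 and 203.2 TPM for Ccna2.

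**Figure D2:**
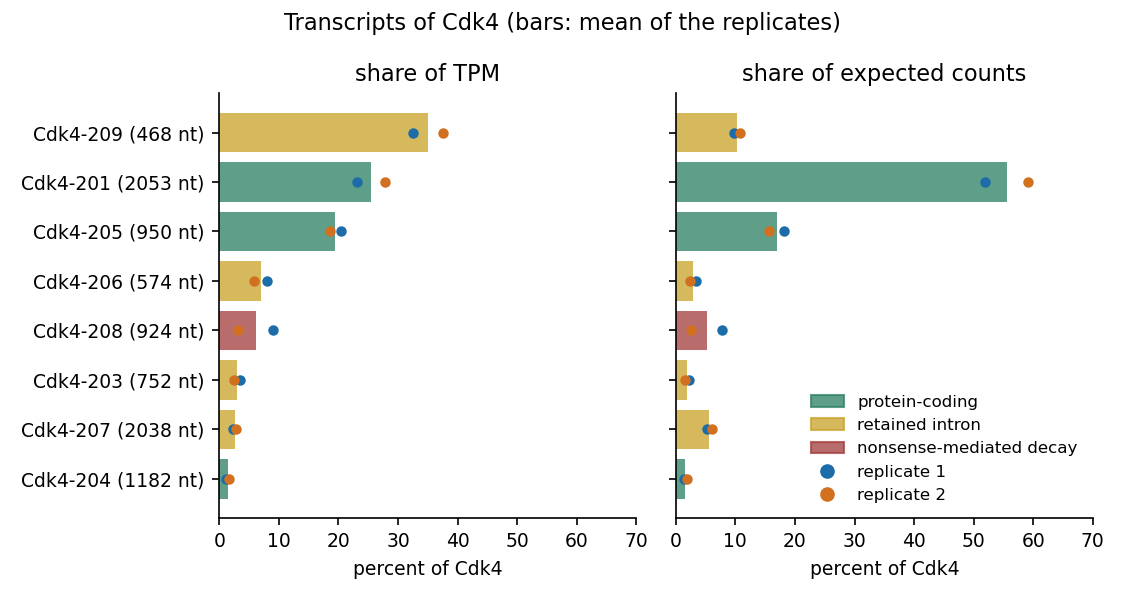
Share of Cdk4 assigned to each of its transcripts with a value above 0, by TPM (left) and by expected counts (right), with bars for the mean of the replicates, points for each replicate and colours for the annotated type. Cdk4-209, 468 nt long, leads by TPM at 32.5% and 37.6%, and Cdk4-201 leads by counts at 52.0% and 59.2%.

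Cdk4-208, annotated as a target of nonsense-mediated decay, held 9.05% and 3.19% of the Cdk4 TPM. Its counts were 884.5 ± 84.0 in replicate 1 and 275.5 ± 83.9 in replicate 2, where the SD is the one deposited for the assignment of reads within a library. The counts of replicates 1 and 2 thus lay apart by more than that assignment error. Cdk4-208 lacks exon 3 of 8 of Cdk4-201, a coding exon of 136 nt at chr10:127064585-127064720 on the plus strand, shown here because it separates the full-length message from this one.
Cdk4 exon 3: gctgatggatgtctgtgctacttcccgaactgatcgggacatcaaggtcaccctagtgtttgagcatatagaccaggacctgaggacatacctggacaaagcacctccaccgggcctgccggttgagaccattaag
The length of the exon leaves a remainder of 1 when divided by 3, and the annotated coding length is 222 nt in Cdk4-208 and 909 nt in Cdk4-201. Cdk4 overlaps Tspan31, a tetraspanin gene on the opposite strand, over 641 exonic nt, and Tspan31 had 76.88 and 74.55 TPM. The deposited notes list separate signal tracks for the plus and the minus strand, but whether the counts used the strand is not stated in the sources used here. The labels alone do not say how reads in the shared exons were assigned. The deposited counts of Cdk4 were whole, with an assignment SD of 0 within each library, so the deposited estimate divided no reads between the pair.

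Both transcripts of Cdk6 have the same coding exons, 978 nt in all, and differ outside them. Cdk6-202 carried 91.5% of the TPM of Cdk6 in replicate 1 and 70.9% in replicate 2, and Cdk6-201 8.54% and 29.1%. The counts of Cdk6-201 were 70.2 ± 49.6 and 181.9 ± 41.8, again with the SD within a library. The difference between replicates in Cdk6-201 was therefore of the order of its assignment error. Cdk6-202 is 3735 nt long in the files and 11525 nt in the later annotation, so the deposited counts and TPM of Cdk6 rest on the shorter model. Ccnd2-201 is likewise 5701 nt in the files and 6330 nt later, and 53 of the 59 transcripts have the same length in both.

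The 3 D cyclins together had 56.73 and 49.15 TPM, and Cdk4 and Cdk6 together 684.1 and 628.5 TPM. D cyclin RNA was thus 0.0829 and 0.0782 of the RNA of their kinases, a mean of 0.0806 ± 0.00334. With protein-coding transcripts only the mean was 0.168, and with complete transcripts only 0.293, so the kinases stayed above the D cyclins under both choices. These are levels of RNA, and no protein was measured.

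The E cyclins activate Cdk2 at the end of G1. Ccne1 lies on the minus strand of chromosome 7 (38097984 to 38107534) and had 1837 and 1990 counts, 53.72 and 59.41 TPM. Ccne2 lies on the plus strand of chromosome 4 (11191351 to 11204779) and had 1941 and 2120 counts, 37.07 and 41.28 TPM. Ccne1 was above Ccne2 in both replicates by TPM, 1.45-fold and 1.44-fold, while by counts it was at 0.946 and 0.939 of Ccne2. The ratio by TPM, 1.44 ± 0.00704, varied least between the replicates, relative to its mean, of the 7 ratios computed. Together the E cyclins had 95.7 ± 7.00 TPM, against 52.9 ± 5.36 TPM for the D cyclins.

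One transcript carried most of each E cyclin. Ccne1-201 held 90.1% and 92.7% of the TPM of Ccne1. Ccne2-202 held 86.2% and 82.0% of that of Ccne2, and Ccne2-201 5.58% and 11.4%. The coding sequences of Ccne2-202 and Ccne2-201 differ at a single splice acceptor, where exon 3 of 12 begins at 11192815 in one and at 11192818 in the other and ends at 11192911 in both, on the plus strand of chromosome 4. The sequence over the junction is shown for both, with the 3 extra bases in capitals.
Ccne2-202: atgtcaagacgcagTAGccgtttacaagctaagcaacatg
Ccne2-201: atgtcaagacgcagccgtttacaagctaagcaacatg
The longer form has 404 codons and the shorter 403, so the 3 bases keep the frame. The assignment SD within a library was 51.2 and 72.3 counts for Ccne2-201, at 120.4 and 262.8 counts. Ccne2 overlaps Ints8, an Integrator subunit gene on the opposite strand, over 609 exonic nt, with 34.52 and 34.35 TPM on Ints8.

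Ccna2, cyclin A2, works with Cdk2 in S phase and with Cdk1 afterwards, and lies on the minus strand of chromosome 3 (36564865 to 36572150). It had 10168 and 11285 counts, 184.6 and 210.8 TPM, and ranked 636th among protein-coding genes, above 97.0% of them. It held 57.0% ± 2.03 of the summed TPM of the 6 cyclins, which came to 346 ± 20.2 TPM. Ccna2-201 carried 94.6% and 96.4% of the gene. The gene overlaps Exosc9, an exosome subunit gene on the opposite strand, over 510 exonic nt, with 98.64 and 115.5 TPM on Exosc9.

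Cdk2, the kinase of the E and A cyclins, lies on the minus strand of chromosome 10 (128697939 to 128705031) and had 2418 and 2468 counts, 55.12 and 58.87 TPM. Its partners Ccne1, Ccne2 and Ccna2 together were 4.996 and 5.29 times as high in replicates 1 and 2, a mean of 5.14 ± 0.209. Most of that sum was Ccna2. Taken singly, Cdk2 was above Ccne2 in both replicates, overlapped Ccne1 and was below Ccna2. A pair of protein-coding forms of Cdk2 were measured. Cdk2-201 held 76.7% and 82.6% of the TPM, and Cdk2-202 23.3% and 17.4%. The counts of Cdk2-202 were 592.7 ± 51.5 and 453.3 ± 40.2, with the SD of assignment, so this form was present well above that error in both libraries. Cdk2-202 has an added coding exon, exon 6 of 8, of 144 nt at chr10:128699976-128700119 on the minus strand, shown because it is the difference between the 2 proteins encoded.
Cdk2-202 exon 6: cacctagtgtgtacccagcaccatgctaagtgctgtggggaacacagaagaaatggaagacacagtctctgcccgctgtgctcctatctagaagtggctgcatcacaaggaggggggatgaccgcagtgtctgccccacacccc
The exon adds whole codons, which gives 346 codons in Cdk2-202 and 298 in Cdk2-201. Cdk2 shares 34 exonic nt with Pmel, a pigment-cell gene on the opposite strand with 3.91 and 4 TPM.

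**Figure D3:**
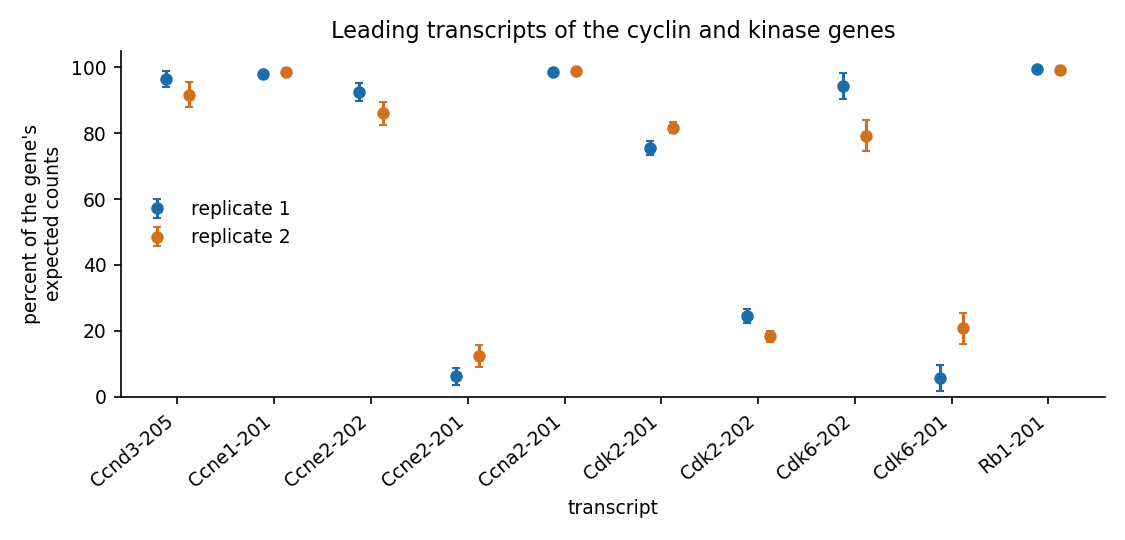
Share of the expected counts of each gene held by its leading transcripts, with a point per replicate and bars of 1 SD for the assignment of reads within a library. Cdk2-202 and Cdk6-201 are second forms beside a main one, and the transcripts of Ccne1, Ccna2 and Rb1 stand near the top in both replicates.

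Rb1, the substrate of these kinases, lies on the minus strand of chromosome 14 (73183673 to 73325822) and had 1152 and 1168 counts, 12.8 and 14.72 TPM. Rb1-201, the complete message, held 99.4% and 99.0% of the counts and 96.6% and 88.4% of the TPM. In replicate 2, 3.07 counts went to Rb1-205, a retained-intron model of 355 nt, and make 1.15 TPM there. In replicate 1 this transcript had 0 counts. Rb1 was below its relative Rbl1, which encodes p107, in both replicates, with a ratio of 0.609 and 0.654. Rb1 overlaps Rcbtb2 over 488 exonic nt and the receptor gene Lpar6 over 408 exonic nt, both on the opposite strand, at 37.75 and 36.57 TPM and at 4.95 and 5.71 TPM.

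The other overlaps on the opposite strand were of Ccnd3 with the ribosome-assembly gene Bysl (361 exonic nt, with 18.45 and 18.61 TPM on Bysl) and of Ccnd1 with LTO1 (1100 exonic nt, with 2.79 and 2.69 TPM on LTO1). Ccnd2 overlapped the antisense gene 9330179D12Rik over 368 exonic nt (0.22 and 0.30 TPM). Gm43126 overlaps Ccnd2 and Gm17590 overlaps Cdk6, and no value was taken for either. A near-identical copy, at 95% identity or more over at least 200 nt, was found for 2 of the 10 genes. Ccnd3-ps matched Ccnd3 at 96.2% over 881 nt and had 0 and 1 counts, and Gm16505 matched Cdk6 at 96.1% over 233 nt and had 0 counts in both replicates. All 10 genes had whole counts with no deposited spread within a library, and the deposited estimate divided no reads between them and other genes.

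Between the replicates, 0 of the 9 genes with a mean of at least 20 counts differed by over 1.5-fold in TPM + 0.5, against 2.68% of the 11661 genes tested. The exact binomial test, two-sided and with Benjamini-Hochberg adjustment over all these genes, compares the 2 libraries and no conditions. By it, Ccne1, Ccne2 and Ccna2, or 3 of 9, had more counts per library in replicate 2, against 15.5% of all genes tested. Ccnd2 and Cdk6, or 2 of 9, had fewer, against 16.1% of all genes tested, and 4 stayed within counting error. With 9 genes these counts are small, and similar moves were common among all genes.

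The counts of Ccna2 per library in replicate 2 were 1.15 times those in replicate 1 (95% exact interval 1.12 to 1.18, exact binomial test, adjusted p = 5.387e-23), and those of Ccne2 1.13 times (1.06 to 1.20, exact binomial test, adjusted p = 0.000536). For Ccne1 the ratio was 1.12 (1.05 to 1.20, exact binomial test, adjusted p = 0.00198). These intervals cover counting error only. The ratio was 0.782 for Ccnd2 (0.745 to 0.822, exact binomial test, adjusted p = 1.205e-21) and 0.729 for Cdk6 (0.668 to 0.795, exact binomial test, adjusted p = 1.193e-11). The 3 later cyclins were thus higher and Ccnd2 and Cdk6 lower in replicate 2. On the log2 scale, Cdk6 was at -0.456 by counts per library and -0.324 by TPM + 0.5. Ccnd2 was at -0.354 and -0.340, so the largest difference was that of Cdk6 by counts and that of Ccnd2 by TPM. Cdk4 (0.969, exact binomial test, adjusted p = 0.0602), Cdk2 (1.06, exact binomial test, adjusted p = 0.124), Rb1 (1.05, exact binomial test, adjusted p = 0.394) and Ccnd3 (0.964, exact binomial test, adjusted p = 0.637) did not pass. Scaling to the ERCC spike-in RNAs in place of the library, which moved the median of all genes tested by 0.26 on the log2 scale, turned the sign of Ccnd3 and Cdk4 from lower to higher in replicate 2 and kept the other signs, with Ccnd2 then at -0.06 and Cdk6 at -0.05. This scaling multiplies every gene by the same factor, so it leaves the differences between genes as they were.

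**Figure D4:**
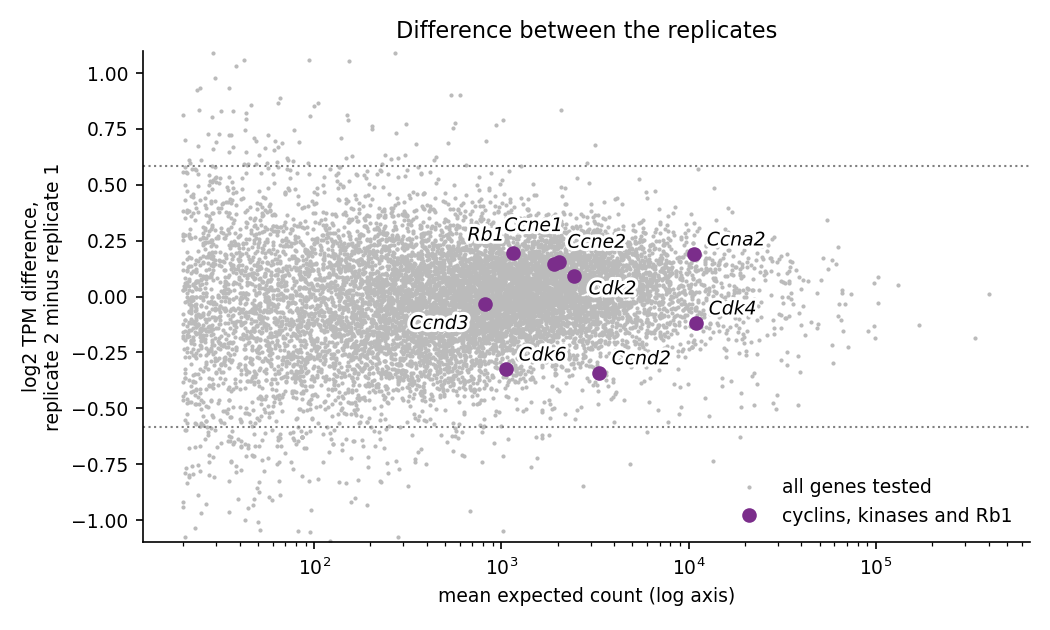
Difference of log2(TPM + 0.5), replicate 2 minus replicate 1, against the mean expected count on a log axis, for all genes tested (grey) and 9 of the 10 genes (purple), with dotted lines at 1.5-fold. All 9 lie between the dotted lines, Ccnd2 and Cdk6 lowest, and 34 of all genes fall outside the plotted range.

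The other genes of the pathway were described by lists chosen with earlier results of these data known. Of the 7 CDK inhibitors, 4 reached 1 TPM in both replicates, with a list median of 5.74 TPM. Of the CIP/KIP family, which acts on all these kinases, Cdkn1b, encoding p27, had 18.06 and 17.95 TPM and Cdkn1a, encoding p21, 8.28 and 7.32 TPM. Cdkn1c, encoding p57, had 0 counts in both replicates, which allows up to 0.0850 and 0.0885 TPM (3 counts per library). Of the INK4 family, which acts on Cdk4 and Cdk6, Cdkn2c had 10.8 and 9.77 TPM and Cdkn2d 5.43 and 6.04 TPM. Cdkn2a and Cdkn2b had 0 counts. The INK4 genes summed to 16.02 ± 0.297 TPM and the CIP/KIP genes to 25.8 ± 0.757 TPM, both lower than Cdk4 alone.

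Of the 12 pocket proteins, E2F factors and their DP partners, 11 reached 1 TPM, with a median of 10.4 TPM. The DP partner Tfdp1 was far the highest at 238.5 and 239.5 TPM, and Tfdp2 had 3.62 and 4.48 TPM. The pocket proteins Rbl1 and Rbl2 had 21.03 and 22.51 TPM and 14.72 and 15.58 TPM, so all 3 pocket proteins were expressed. Of the activating E2F factors, E2f1 had 3.94 and 3.41 TPM, E2f2 3.41 and 3.75 TPM and E2f3 9.55 and 9.77 TPM. The repressive E2f4 was the highest E2F gene at 30.26 and 25.9 TPM, followed by E2f5 at 21.62 and 21.08 TPM and E2f6 at 12.17 and 10.21 TPM. The atypical E2f8 had 2.01 and 1.82 TPM, and E2f7, at 0.62 and 0.51 TPM, was the gene of this list under 1 TPM.

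All 17 genes of the list of E2F-driven G1/S genes were expressed, with a median of 141 TPM. The highest was Pcna, the replication clamp, at 634.9 and 689.5 TPM, and the lowest was Cdt1, the licensing factor, at 31.39 and 32.33 TPM. Of the other cell cycle cyclins and kinases, 10 of 12 with a feature were expressed, with a median of 19.1 TPM. The mitotic kinase Cdk1 had 571.3 and 625.2 TPM and overlapped Cdk4 in level when all transcripts of both genes were counted. Transcripts of Cdk1 were not examined singly. Ccna1, the germline A cyclin, and Ccnb3 had 0 counts in both replicates, which allows up to 0.107 and 0.111 TPM for Ccna1 and 0.0334 and 0.0349 TPM for Ccnb3.

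All 8 genes of the CDK-activating kinase, the Cdc25 phosphatases and the inhibitory kinases were expressed, with a median of 19.6 TPM, from Wee1 at 7.63 and 7.31 TPM to Ccnh, the cyclin of the activating kinase, at 65.81 and 76.36 TPM. All 12 genes of cyclin turnover were expressed, with a median of 23.8 TPM, from the deubiquitinase Usp2 at 1.52 ± 0.389 TPM to the SCF subunit Skp1a at 285.1 and 356.2 TPM. All 6 MuvB and DREAM genes were expressed, with a median of 15 TPM, from Lin37 at 3.06 and 3.97 TPM to Rbbp4 at 56.55 and 58.78 TPM. Outside counting error by the exact binomial test, 6 of the 17 E2F-driven genes were higher and 2 lower in replicate 2, against 4 and 4 of 11 cyclin turnover genes tested and 0 and 3 of the 12 pocket protein and E2F genes. Of the CDK inhibitors tested, 0 of 4 were higher and 1 lower. The counts were 2 higher and 0 lower of 8 for the activating kinase, phosphatase and inhibitory kinase list, 0 and 1 of 6 for MuvB and DREAM, and 2 and 0 of 9 for the other cyclins and kinases. These calls are by counts per library. Of the 25 genes called over the 7 lists, 4 had the opposite direction by TPM, namely Cul3, E2f2, Gsk3b and Mcm3, the last 3 lower by counts and Cul3 higher, where Cul3, Gsk3b and Mcm3 are named after their values were seen. The background was 15.5% higher and 16.1% lower of all genes tested.

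**Figure D5:**
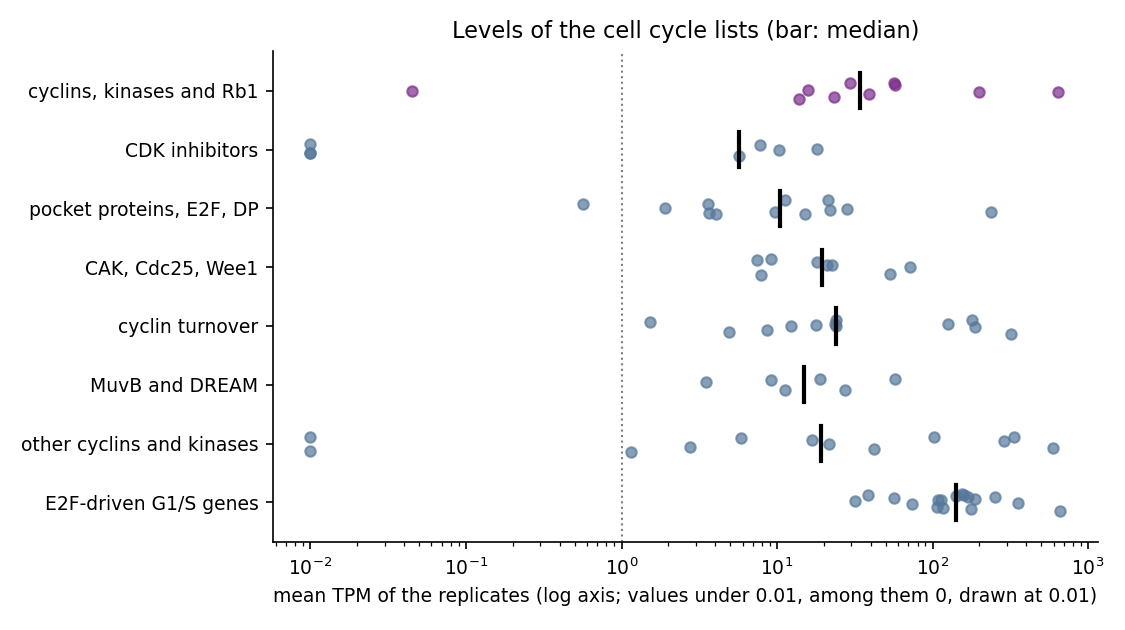
Mean TPM over the replicates on a log axis for each gene of the cyclin, kinase and Rb1 set and of 7 lists of the cell cycle, with a black bar for the median and a dotted line at 1 TPM. The E2F-driven genes have the highest median, 141 TPM, and 3 CDK inhibitors and 2 other cyclins have 0 counts and are drawn at 0.01.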

How the data were processed

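Gene and transcript tables of 2 CH12.LX libraries were used, made by the authors on mm10 with GENCODE annotation M4, per the file headers. Expected counts deposited by the authors divide shared reads between features and are not normalized. They were rounded for tests. TPM and FPKM were deposited by the authors, scaled to transcript length and library. Isoform percent, deposited by the authors, gives how a gene's TPM divides among its transcripts. The authors also deposited posterior means and, as a score with no fixed total, the lower and upper credibility bounds of TPM. Which aligner and counter were used is not given in the sources used.

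Names, transcript types and exons came from GENCODE M21 by identifier without version, upstream windows from RefSeq (GRCm38.p6). Replicate differences used log2(TPM + 0.5), which understates changes of low genes, over genes with a mean count of 20 or more. Counts were tested with a two-sided exact binomial test against the library totals of genes, adjusted by Benjamini-Hochberg at 0.05. The procedure was tested on simulated counts that held sampling noise only, so that run does not cover variation between cultures. The labels do not say how the replicate cultures were separated, so the SD may be partly technical. Intervals cover counting error only, since the exact binomial interval holds no variation between cultures. PCR copies of the same molecule cannot be recognised, so the intervals may be too narrow even for counting error. The limit behind a count of 0 is 3 counts.

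All 10 genes are named, with the highest, the lowest and the genes at 0 counts of each list, the CDK inhibitor and pocket protein lists in full, transcripts of 10 or more isoform percent, overlapping genes and near-identical genes. Members and lists were chosen with earlier results of these data known. The grouping of Ccnd3 starts, the motifs, the printed exons and the alternatives by transcript type were chosen after values were seen. Tools were numpy 2.4.6, pandas 2.3.3, scipy 1.17.1, matplotlib 3.10.9, and R 4.3.3 with edgeR 4.0.16 for the TMM alternative.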

Additional observations from a re-analysis of the deposited data

How the results depend on the processing

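The count of 9 expressed genes kept its value at 0.5 and at 5 TPM, with posterior mean TPM and in either replicate alone. The count of 5 genes outside counting error was the same with edgeR's TMM factors and with no filter on counts. At the lower of the fold thresholds tried, 2 genes, Ccnd2 and Cdk6, differed between the replicates, against 0 at 1.5-fold. In TPM + 0.5, replicate 2 was at 0.790 of replicate 1 for Ccnd2 and at 0.799 for Cdk6. The share of all genes tested that passed this lower threshold was not computed, so whether 2 of 9 is unusual was not tested. FPKM gave the same 7 ratios, which is no check, since within a library FPKM is TPM times a constant. With posterior mean TPM, Ccnd3/Ccnd2 was 0.966, Ccne1/Ccne2 1.42, D cyclins over Cdk4 and Cdk6 0.0882 and Rb1/Rbl1 0.694. With protein-coding transcripts only, Cdk4/Cdk6 was 19.1, Cdk4/Cdk2 5.21, D cyclins over Cdk4 and Cdk6 0.168, Ccne1/Ccne2 1.45 and the later cyclins over Cdk2 4.88. With complete reading frames only, these were 10.6, 2.85, 0.293, 1.41 and 4.86. Fewer transcripts of Cdk4 enter the last 2 settings, both chosen after seeing the data. With complete frames, Cdk4 at 162.7 TPM fell below Ccna2 at 188.9 TPM. For the other moves the cause was not tested. Without 1 replicate, the ratios ranged from 0.710 to 0.882 (Ccnd3/Ccnd2), 1.44 to 1.45 (Ccne1/Ccne2), 38.1 to 44.2 (Cdk4/Cdk6), 10.4 to 12.1 (Cdk4/Cdk2), 0.0782 to 0.0829 (D cyclins over their kinases), 4.996 to 5.29 (later cyclins over Cdk2) and 0.609 to 0.654 (Rb1/Rbl1). No paired analysis was possible because the 2 libraries form 1 group. Depth limits Ccnd1, at 2 and 4 counts, and the minor transcripts of Ccnd3 and Rb1.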
